A study of Rattus norvegicus with 5 samples.

Results

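The heat shock proteins and the cytosolic chaperonin are the main protein-folding machines of the cytosol and of the mitochondrial matrix, and 34 of their genes were followed in cultured vascular smooth muscle cells of the rat, which in the vessel wall contract and set its diameter. The genes were chosen by symbol, with 1 row kept for each symbol (the row with the highest mean linear value), so they are 34 of the 17048 rows in the deposited tables. They are 6 genes of the HSP70 family, 4 genes of the HSP110 and BAG nucleotide exchange factors, 4 J-domain partners, 6 genes of HSP90 and its cochaperones, 3 small heat shock proteins, 2 genes of the mitochondrial chaperonin, the transcription factor Hsf1, and the 8 subunits of the cytosolic chaperonin (Tcp1 and Cct2 to Cct8). RNA was sequenced from 5 cultures: hypoxia for 24 h after pretreatment with In-Cl (0.1 µM), hypoxia for 24 h after DPN (0.1 µM), hypoxia for 24 h after E2 (10 nM), hypoxia for 24 h alone, and an untreated control. The series describes the 3 compounds as agonists of the estrogen receptor; E2 is estradiol, the natural steroid hormone, and DPN is a synthetic ligand that prefers estrogen receptor beta. None of the sources used here gives the artery, the strain or the passage of the cells. Each condition is 1 library, so no difference below has a replicate check or a p-value, and every statement compares libraries.

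HSP70 binds exposed stretches of unfolded proteins in a cycle driven by ATP: J-domain partners deliver the client and start hydrolysis, and HSP110 and BAG proteins exchange the nucleotide so that the client is released. HSP90 acts later on nearly folded clients, among them steroid hormone receptors, small heat shock proteins hold unfolding proteins without ATP, and the barrel-shaped chaperonins enclose a chain while it folds, actin and tubulin being the best-known clients of the cytosolic one. Many of these genes are switched on together by heat shock factor 1, which binds heat shock elements, repeats of the unit GAA and its complement TTC in alternating order.

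Heat shock elements are a property of the gene's sequence, independent of the expression values, and are shown first. Of the 34 genes, 27 have an entry in the RefSeq promoter table (build GRCr8, 250 bases before to 50 bases after the annotated start); Hspa1b, Hspa12a, Hsp90aa1, Dnaja2, Dnajb4, Cryab and Hsf1 are not among them. The letters searched were GAANNTTC and TTCNNGAA, the 2 ways in which a pair of neighbouring units can stand; each reads the same on both strands, and matches that share a unit make a run of 3 or more units. Of the 27 promoters, 17 (63.0%) held at least 1 pair, against 15.9% of all 33469 promoters of the same length and 11.4% of the 5201 promoters of genes with an abundant row in these libraries. A run of 3 units stood in 6 of them (22.2%), those of Hspa8, Hsph1, Dnaja1, Hspd1, Hspe1 and Cct4, against 0.798% of all promoters and 0.50% of those of abundant genes. Hspa1a, Hspa2, Hspa4l and Hspb8 are among the 27 but have no abundant row, so the shares of abundant genes cover an unlike set. The 33469 promoters were not reduced to 1 per symbol, while the members and the 5201 were. Pairs were found in 14 of the 19 promoters of other members (73.7%) and in 3 of the 8 of the cytosolic chaperonin (37.5%), those of Cct4, Cct5 and Cct6a. No match stood in the windows of Hspa1a, Hspa4, Hsp90ab1, Trap1, Ahsa1, Tcp1, Cct2, Cct3, Cct7 and Cct8. The search took exact units only, in the window set by the annotated start. Imperfect units and elements outside that window would be missed, so no match does not mean no element. The promoters printed here were chosen among those with a match, to show a run or separate pairs in genes of different roles and with different expression results; capitals mark the GAA and TTC units of the matches, and everything else is in lower case. They are Hsph1 (chr12:10427118-10427417, plus strand), Hspe1 (chr9:64084077-64084376, plus strand), Hspa8 (chr8:50080264-50080563, plus strand), Dnajb1 (chr19:41431092-41431391, minus strand), Hspb1 (chr12:26432252-26432551, minus strand) and Cct4 (chr14:101192807-101193106, plus strand), all from RefSeq, GRCr8, 5′ to 3′ on the strand of the gene.
Hsph1: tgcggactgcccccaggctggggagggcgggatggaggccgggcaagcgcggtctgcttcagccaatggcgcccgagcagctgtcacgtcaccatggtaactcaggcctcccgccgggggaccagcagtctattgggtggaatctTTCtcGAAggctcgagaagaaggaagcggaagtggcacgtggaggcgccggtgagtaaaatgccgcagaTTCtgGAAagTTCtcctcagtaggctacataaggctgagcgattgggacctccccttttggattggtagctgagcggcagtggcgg
Hspe1: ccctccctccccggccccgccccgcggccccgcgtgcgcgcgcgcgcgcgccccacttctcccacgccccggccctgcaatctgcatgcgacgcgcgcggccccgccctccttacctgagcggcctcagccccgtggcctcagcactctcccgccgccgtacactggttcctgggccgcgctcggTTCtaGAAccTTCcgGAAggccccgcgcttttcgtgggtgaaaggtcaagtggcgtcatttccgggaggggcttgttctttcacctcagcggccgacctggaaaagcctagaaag
Hspa8: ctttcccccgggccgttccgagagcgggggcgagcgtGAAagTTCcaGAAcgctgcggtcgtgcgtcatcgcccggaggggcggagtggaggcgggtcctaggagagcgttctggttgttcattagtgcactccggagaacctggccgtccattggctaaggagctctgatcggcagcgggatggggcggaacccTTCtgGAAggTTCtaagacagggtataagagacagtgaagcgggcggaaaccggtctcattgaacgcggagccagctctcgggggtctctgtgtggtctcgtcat
Dnajb1: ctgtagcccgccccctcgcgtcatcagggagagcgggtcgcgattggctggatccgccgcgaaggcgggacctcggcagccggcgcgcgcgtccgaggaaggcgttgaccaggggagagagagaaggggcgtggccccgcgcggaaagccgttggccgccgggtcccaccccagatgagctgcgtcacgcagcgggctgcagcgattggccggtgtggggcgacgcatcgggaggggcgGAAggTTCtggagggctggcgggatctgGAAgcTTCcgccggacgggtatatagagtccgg
Hspb1: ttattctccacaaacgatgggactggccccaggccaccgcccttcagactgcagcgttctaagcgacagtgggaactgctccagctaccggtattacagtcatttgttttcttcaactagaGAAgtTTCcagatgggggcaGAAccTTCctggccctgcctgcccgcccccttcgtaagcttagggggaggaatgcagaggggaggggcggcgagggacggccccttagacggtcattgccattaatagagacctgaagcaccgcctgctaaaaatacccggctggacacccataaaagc
Cct4: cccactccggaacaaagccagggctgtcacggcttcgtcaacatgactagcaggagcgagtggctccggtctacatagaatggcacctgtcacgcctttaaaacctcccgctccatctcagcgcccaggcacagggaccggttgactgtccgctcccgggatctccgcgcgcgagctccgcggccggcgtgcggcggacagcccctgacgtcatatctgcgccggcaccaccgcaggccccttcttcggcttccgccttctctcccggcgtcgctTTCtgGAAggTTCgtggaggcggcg

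The run in the Hspe1 promoter joins 4 units without a break, between positions -65 and -48 from the start. Hspd1 lies beside Hspe1 on the opposite strand of chromosome 9 with its start 290 bases away, the 2 promoter windows share 211 bases, and the run that Hspd1 shows between -242 and -225 is the same stretch read from the other side. That stretch is therefore counted for both genes, among the 17 promoters with a pair and the 6 with a run of 3. In Hsph1 a run of 3 units stands between -36 and -24 and a separate pair at -105. Dnajb1 has separate pairs at -11 and 17 and Hspb1 has separate pairs at -129 and -109, while in Cct4 the run of 3 lies after the start, between 25 and 37. A match of letters is a description of the sequence, and no binding was measured.

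**Figure D1:**
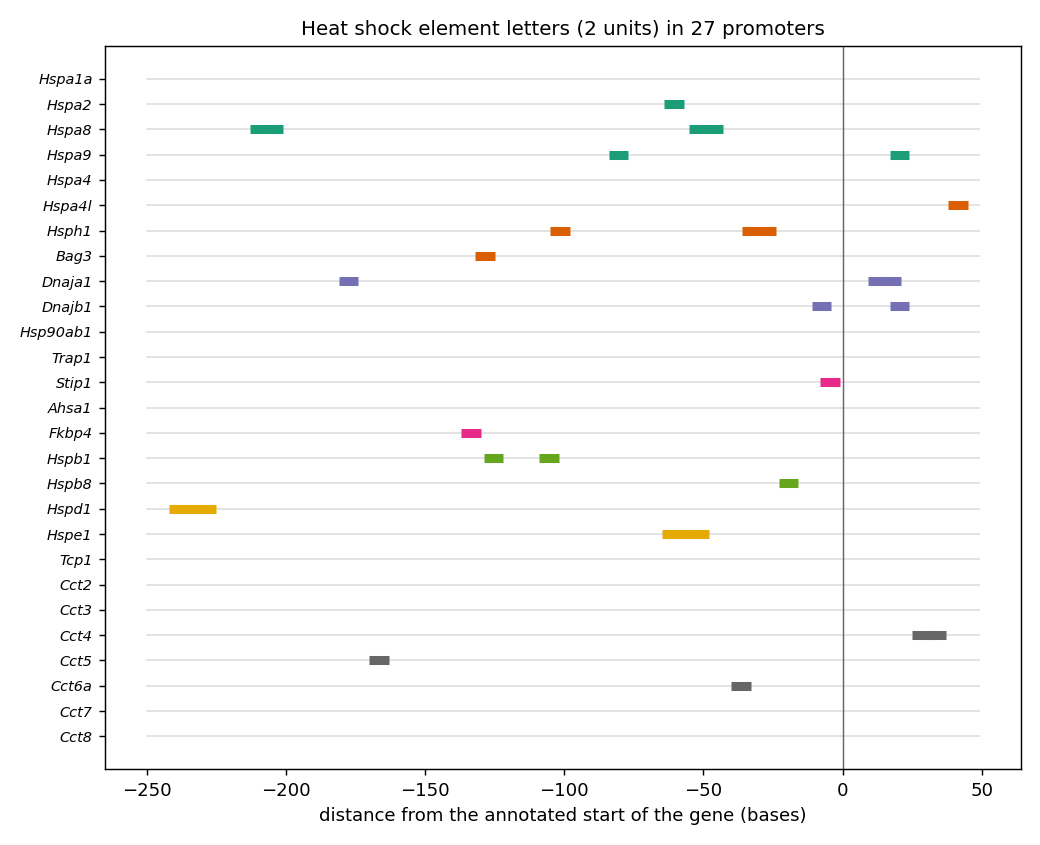
Position of heat shock element letters (coloured bars, at least 1 pair of units) in the 27 promoters, one grey line per gene, against the distance in bases from the annotated start (vertical line). Colours are the roles: HSP70 green, HSP110 and BAG orange, J-domain purple, HSP90 group pink, small heat shock proteins light green, mitochondrial chaperonin yellow, cytosolic chaperonin grey; 17 of the 27 lines carry a bar.

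The deposited values are log2 values, and a level below is that value turned back to the linear scale, called adjusted reads; differences are in log2 units. The linear values sum to 22837695 in the hypoxia library, the highest, and to 20663687 in the control, the lowest. Approximate reads, which do not follow these sums, ran from about 20200000 (E2) to 24800000 (control). Brackets after a difference give its 95% interval from counting error alone; reads that carry no molecular identifier cannot be taken for independent molecules, and the spread between cultures is unknown. Of 9 smooth muscle markers 7 were abundant, beside 1 of 5 endothelial, 0 of 4 leukocyte and 1 of 4 epithelial markers. In hypoxia against control the abundant endothelial marker was at 0.60 and the abundant epithelial marker at 1.34. The endothelial genes Cdh5 and Kdr and the leukocyte gene Itgam were listed at 0 in every library. The 5 endothelial markers summed to between 259.6 and 459.6 adjusted reads, the 4 leukocyte markers to between 183.8 and 237.9 and the 4 epithelial markers to between 221.3 and 564.5; the endothelial and the epithelial sum were lowest in the control, and their part in the results was not tested. All 6 hypoxia genes used as a check (among them Pgk1 and Slc2a1) stood past 1.5-fold above the control in hypoxia, with a median difference of 3.43. As the samples are bulk RNA, fewer cells of a kind and less RNA per cell cannot be told apart.

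Counts were made over the 6699 abundant rows, the upper 50% of detected rows by mean linear value (a mean of at least 310.5), and 29 of the 34 members are among them. The other 5 were Hspa1a, Hspa2, Hspa12a, Hspa4l and Hspb8. Levels of different genes are not compared, since no transcript length entered the values.

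In hypoxia against control, which asks what low oxygen did to the folding machinery, most of it stood lower. Of the 29 abundant members 25 were below 0 and 4 above, with a median difference of -0.27, against -0.05 for all 6699 rows, of which 56.2% were below 0. The differences were modest: 2 members, Hsph1 and Hspd1, were at least 1.5-fold lower, where 3.39% of all rows were. A second limit was set at a log2 difference of 0.32, a ratio of 5 to 4, and 12 members were lower by at least that much, where 16.9% of rows were. In the other direction 2 members, the inducible HSP70 gene Hspa1b and its J-domain partner Dnajb1, were at least 0.32 higher, against 11.8% of rows, and 0 were at least 1.5-fold higher, against 4.39%. The interval lay below 0 for 25 members, against 39.0% of rows. Intervals narrow as reads rise, so such counts, here and below, depend on depth. The rows were not matched to the members by level. With the libraries scaled to the same total, which moves the median of all abundant rows to -0.19, the number at least 1.5-fold lower was 8 and the number at least 0.32 higher was 0; with median centring only Hsph1 was past 1.5-fold lower.

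**Figure D2:**
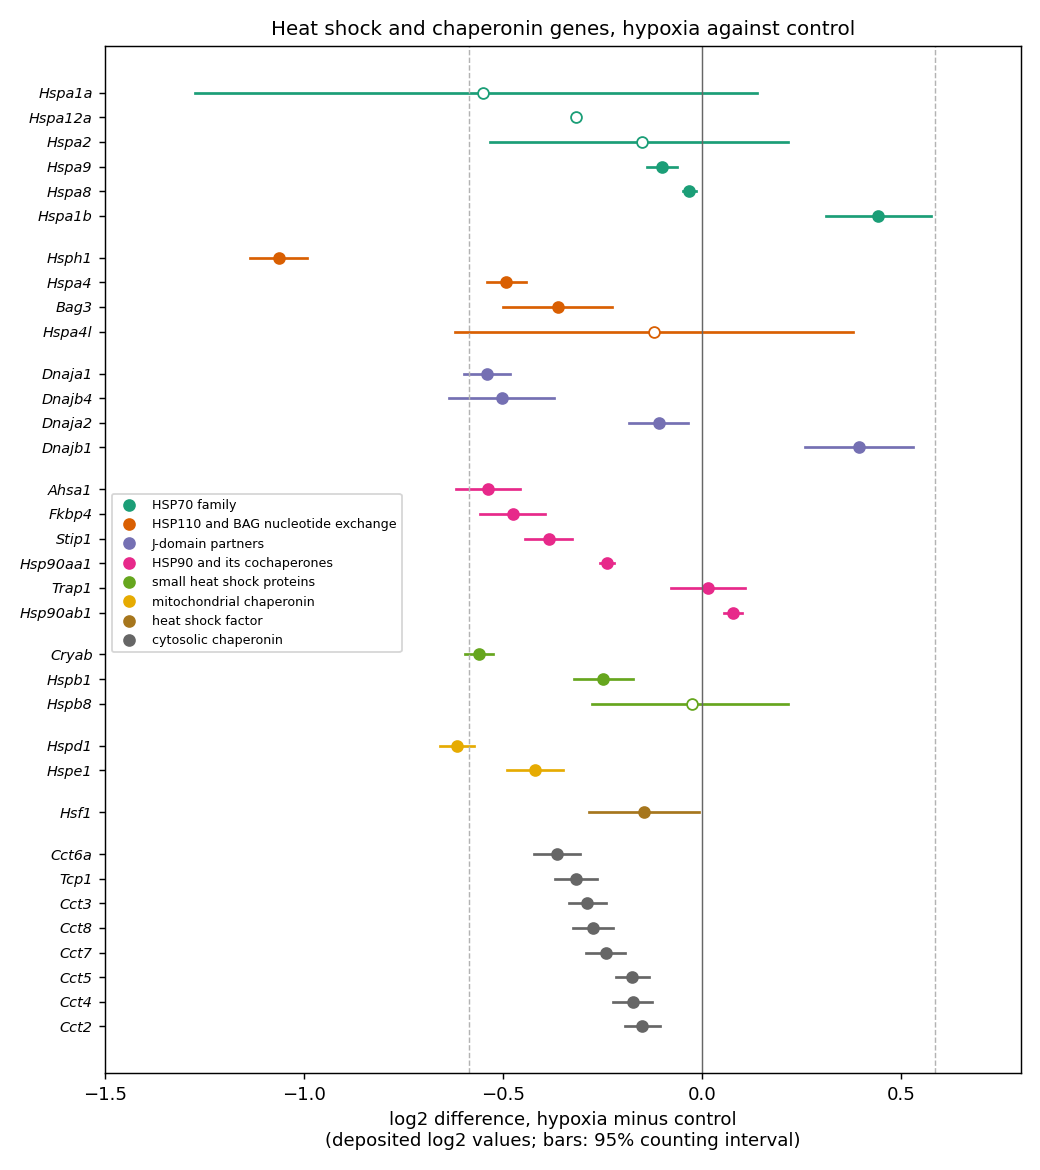
Log2 difference of deposited values, hypoxia minus control, for all 34 members grouped by role; bars are 95% counting intervals, filled points are the 29 abundant members, open points the other 5, and dashed lines mark 1.5-fold. Hsph1 lies furthest to the left at -1.06 and Hspa1b furthest to the right at 0.44; the interval of Hspa12a (-6.57 to 3.57, on 1 and 2 reads) is wider than the axis and is not drawn.

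The HSP70 family itself was split. Hspa1b, the stress-inducible cytosolic HSP70, had 889.8 adjusted reads with In-Cl, 863 with DPN, 835 with E2 and 1016 in hypoxia alone, against 747 in the control. All 4 hypoxic libraries were above the control, and hypoxia alone was the highest (0.44 [0.31 to 0.57], 1.36-fold). Hspa1a, its neighbour on chromosome 20 and a near-identical copy, had only 24.7 with In-Cl, 27.6 with DPN, 21.1 with E2 and 28.9 in hypoxia, against 42.8 in the control, with an interval on both sides of 0 (-0.55 [-1.28 to 0.14]). The authors' counting could have split reads between the copies, so the direction of each copy alone is uncertain; summed, the pair had 914.5 adjusted reads with In-Cl, 890.7 with DPN, 856.5 with E2 and 1045 in hypoxia, against 789.9 in the control, a difference of 0.40 for hypoxia against control.

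Hspa8, the constitutive HSP70 that does most of the folding work in unstressed cells, had 46372 adjusted reads with In-Cl, 49221 with DPN, 48678 with E2 and 50359 in hypoxia, against 51489 in the control. The control was the highest of the 5, and the difference for hypoxia against control was -0.03 [-0.05 to -0.01]. That value depended on the scaling: it was 0.01 with median centring, -0.18 with the same total and -0.31 with quantile normalization. The symbol stands on 3 rows, and their sum differed by -0.05. Hspa9, the mitochondrial HSP70, was at -0.10 [-0.14 to -0.06], and its level with E2 (11120.0) was above that of the control (11097). Among low members, Hspa2 lay between 102 (E2) and 121 (control) adjusted reads, and Hspa12a, a distant relative, rested on 5 reads with In-Cl, 5 with DPN, 3 with E2, 1 in hypoxia and 2 in the control.

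The nucleotide exchange factors of HSP70 had a median difference of -0.49 over their 3 abundant genes, against -0.03 over 3 of the HSP70 family. Hsph1, the HSP110 protein that reloads HSP70 and helps it to dissolve aggregates, had 2633 adjusted reads with In-Cl, 2467 with DPN, 2356 with E2 and 2209 in hypoxia, against 4620.0 in the control. The control stood far above all 4 hypoxic libraries, and hypoxia alone was 2.09-fold lower than the control (-1.06 [-1.14 to -0.99]), the largest difference of any abundant member in this comparison. It was at least 1.5-fold lower under every scaling tried and with each ligand library in place of hypoxia. Its relative Hspa4 was at -0.49 [-0.54 to -0.44], while Hspa4l, with 46.8 to 68.6 adjusted reads, was too low to place (-0.12 [-0.62 to 0.38]). Bag3, which releases HSP70 clients and directs them to autophagy, had 701 with In-Cl, 617 with DPN, 658 with E2 and 728 in hypoxia, against 936 in the control (-0.36 [-0.50 to -0.23]). All 3 abundant genes of the group were at least 0.32 lower, where 16.9% of all abundant rows were.

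Among the J-domain partners Dnajb1 lay on the other side of the control from the rest. Dnajb1, the classical HSP40, had 795 adjusted reads with In-Cl, 916 with DPN, 901 with E2 and 935 in hypoxia, against 712 in the control; the control was the lowest of the 5 and the difference for hypoxia was 0.39 [0.26 to 0.53]. Dnaja1 was at -0.54 [-0.60 to -0.48], Dnajb4, a relative of Dnajb1, at -0.50 [-0.64 to -0.37] and Dnaja2 at -0.11 [-0.18 to -0.04]. Dnaja1 and Dnajb1 carry heat shock element letters in their promoters and differed in direction. Whether the letters have a part in the differences of any member was not tested.

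HSP90 and its cochaperones had a median of -0.31. Hsp90aa1, the inducible cytosolic HSP90, had 50534 adjusted reads with In-Cl, 51382 with DPN, 50011.5 with E2 and 48914 in hypoxia, against 57728 in the control (-0.24 [-0.26 to -0.22], and -0.57 with quantile normalization). Hsp90ab1, the constitutive form, had 30361 with In-Cl, 30361 with DPN, 30256 with E2 and 31367 in hypoxia, against 29737 in the control (0.08 [0.05 to 0.10]). The 2 forms therefore lay on opposite sides of the control, although the direction of Hsp90ab1 turned to -0.16 with quantile normalization and -0.07 with the same total. Ahsa1, which stimulates the ATPase of HSP90, was at -0.54. Fkbp4, an immunophilin of steroid receptor complexes, was at -0.48, and Stip1, which hands clients over from HSP70 to HSP90, at -0.39. These were the 3 of 6 genes of the role at least 0.32 lower, where 16.9% of all abundant rows were. Trap1, the mitochondrial HSP90, was at 0.01 [-0.08 to 0.11], or -0.13 with the same total.

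Small heat shock proteins are prominent in muscle, where they protect the cytoskeleton. Cryab, the alphaB-crystallin chain, had 8604 adjusted reads with In-Cl, 9403 with DPN, 8515 with E2 and 10134 in hypoxia, against 14950.5 in the control. Every hypoxic library was well below the control; hypoxia alone was 1.48-fold lower (-0.56 [-0.60 to -0.53]), just short of the 1.5-fold limit, and it passed that limit with each ligand library in place of hypoxia (-0.80 with In-Cl, -0.67 with DPN, -0.81 with E2). Hspb1 (HSP27) had 1998 with In-Cl, 2356 with DPN, 2196 with E2 and 2581 in hypoxia, against 3065 in the control (-0.25 [-0.32 to -0.17]). Hspb8, the partner of Bag3, lay between 243 (In-Cl) and 289 (DPN) adjusted reads, with the control at 258 and hypoxia at 253, so the control was within the range of the others.

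The mitochondrial chaperonin was lower as a pair. Hspd1, the HSP60 barrel, had 7210.1 adjusted reads with In-Cl, 7542 with DPN, 6807 with E2 and 6630.0 in hypoxia, against 10162 in the control. All 4 hypoxic libraries were below the control, hypoxia alone by 1.53-fold (-0.62 [-0.66 to -0.57]). The call at 1.5-fold was lost with median centring (-0.57) and with In-Cl (-0.50), DPN (-0.43) or E2 (-0.58) in place of hypoxia, while the direction stayed. Hspe1, the lid of the barrel, which shares the promoter region shown above with Hspd1, had 2373 with In-Cl, 2762 with DPN, 2386 with E2 and 2638 in hypoxia, against 3530.3 in the control (-0.42 [-0.49 to -0.35]). Hsf1 itself had 805 with In-Cl, 732 with DPN, 769.7 with E2 and 762 in hypoxia, against 843 in the control, a small difference whose interval nearly touched 0 (-0.15 [-0.28 to -0.01]).

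**Figure D3:**
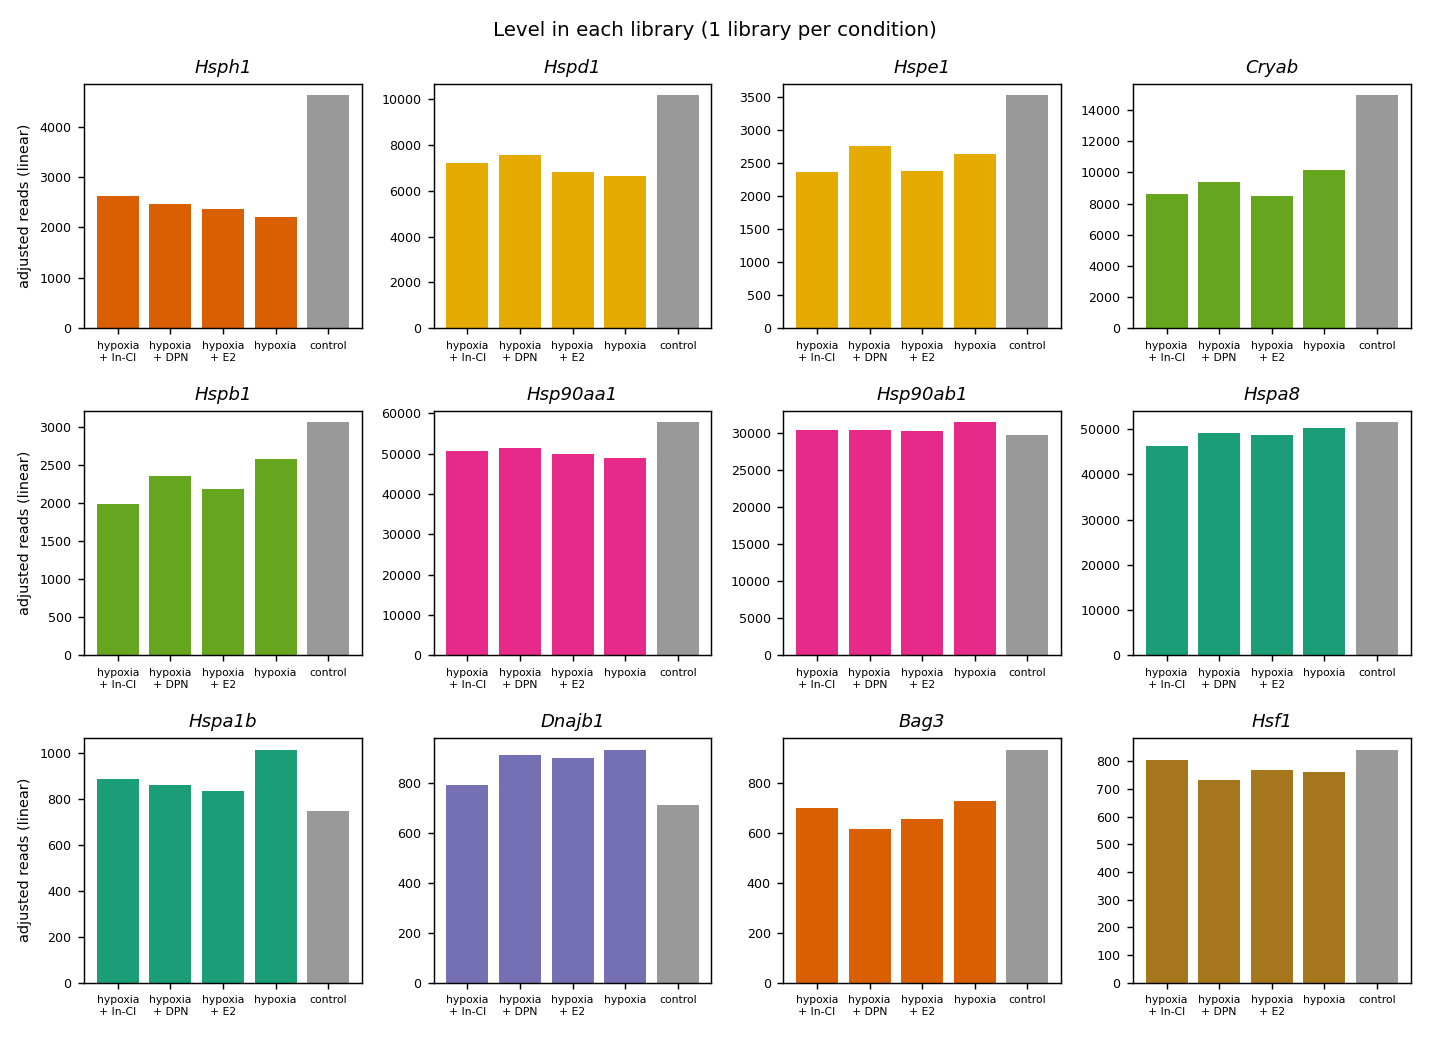
Level of 12 members in each library, in adjusted reads on a linear scale that starts at 0, with 1 bar per library and no error bar because each condition is 1 library; coloured bars are the 4 hypoxic libraries and the grey bar at the right is the control. Hsph1, Hspd1, Hspe1 and Cryab stand below the control in every hypoxic library, and Hspa1b and Dnajb1 above it.

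The 8 subunits of the cytosolic chaperonin were all lower in hypoxia than in the control. They encode the 8 different places of one ring, so their protein products are used in equal numbers, and they are not replicates of a condition. Differences for hypoxia against control ran from -0.37 in Cct6a to -0.15 in Cct2, with a median of -0.26, and the interval lay below 0 in all 8, against the 39.0% of rows given above. Cct6a had 4155 adjusted reads with In-Cl, 4257 with DPN, 4260.1 with E2 and 4175 in hypoxia, against 5378 in the control (-0.37 [-0.42 to -0.31]). Of the 8, Cct6a alone was at least 0.32 lower, where 16.9% of rows were. Cct2 had 6737 with In-Cl, 7240.1 with DPN, 7150.4 with E2 and 7210.1 in hypoxia, against 8000.2 in the control (-0.15 [-0.19 to -0.11]). Between these 2 lay Tcp1 at -0.32, Cct3 at -0.29, Cct8 at -0.27, Cct7 at -0.24 and, near Cct2, Cct4 and Cct5 at -0.18 each. The lowest and highest subunit were thus closer to each other than the extremes of the other roles with 3 or more abundant genes (J-domain partners, -0.54 to 0.39; HSP90 and its cochaperones, -0.54 to 0.08; HSP70, -0.10 to 0.44; HSP110 and BAG, -1.06 to -0.36).

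The 4 hypoxic libraries were also set against the control one by one; they share that single control and carry different treatments, so they are no replicates of hypoxia. For 24 of the 29 abundant members the control lay above all 4, where 41.8% of all abundant rows did. For 3 members, Hspa1b, Dnajb1 and Hsp90ab1, it lay below all 4, where 30.6% of rows did, and for Hspa9 and Trap1 it lay within their range. Across the scalings tried, 24 members were below 0 in every one for hypoxia against control, Hspa1b and Dnajb1 were above 0 in every one, and Hspa8, Hsp90ab1 and Trap1 differed in direction between scalings.

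**Figure D4:**
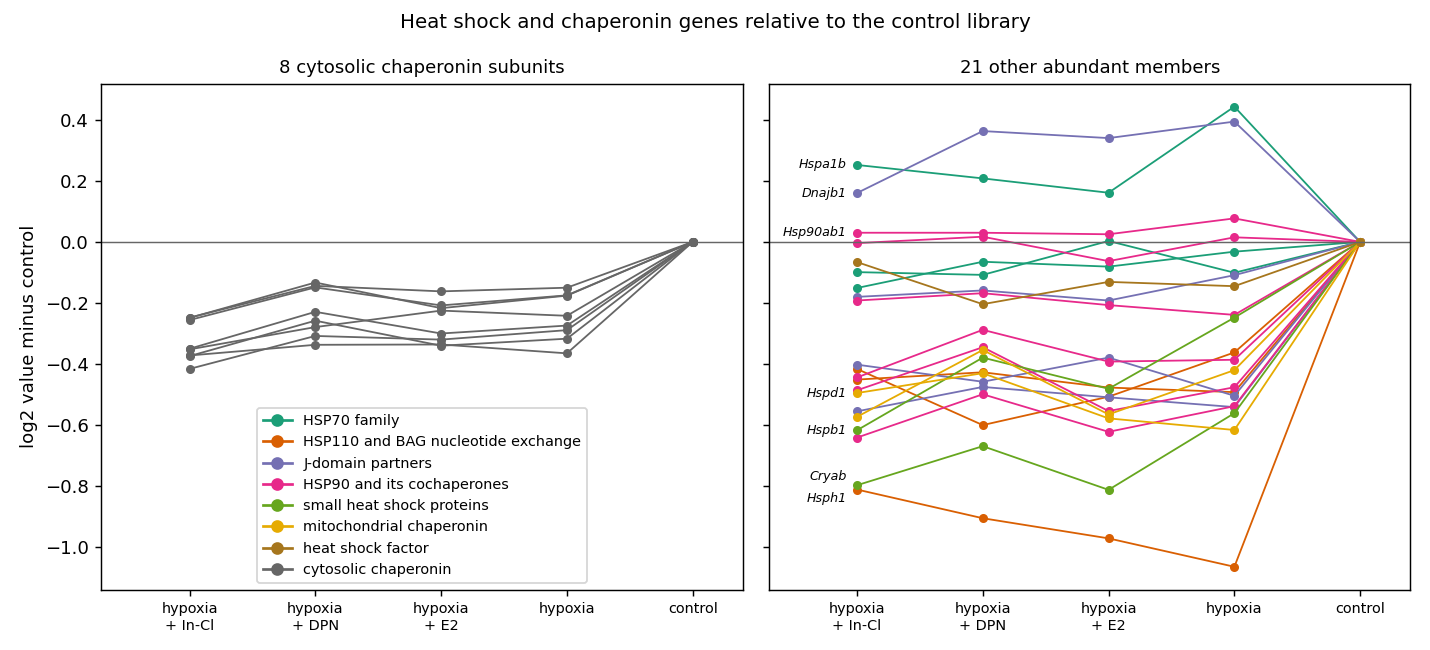
Log2 value of each library minus the control library (y axis) for the 8 cytosolic chaperonin subunits (left) and the 21 other abundant members (right); each line joins the values of 1 gene across the conditions, which have no order. The 8 subunits stay between -0.42 and -0.13 in the 4 hypoxic libraries, and the other members spread from -1.06 (Hsph1) to 0.44 (Hspa1b).

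With In-Cl against hypoxia, which asks what the compound added under low oxygen, the differences were smaller and centred nearer 0. The 29 abundant members had a median of -0.06, against -0.01 for all rows, with 7 above and 22 below 0, where 52.7% of rows were below 0; with the libraries scaled to the same total the median was 0.01. No member was at least 1.5-fold different, where 1.42% of rows were, 1 was at least 0.32 lower (Hspb1, against 4.84% of rows) and 0 were at least 0.32 higher, against 7.67%. The same total left 0 members at least 0.32 lower and put 1, Hsph1, past 0.32 higher. The interval lay below 0 for 14 members, against 29.2% of rows.

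With In-Cl Hspb1 was the lowest abundant member relative to hypoxia, at -0.37 [-0.45 to -0.28]. Cryab at -0.24 [-0.28 to -0.19] and Dnajb1 at -0.23 [-0.37 to -0.09] were level with each other, and Hspa1b followed at -0.19 [-0.32 to -0.06]. The low small heat shock protein Hspb8 was at -0.06 [-0.32 to 0.20]. At the other end were the 2 members lowest in hypoxia, Hsph1 at 0.25 [0.17 to 0.34] and Hspd1 at 0.12 [0.07 to 0.17]; both comparisons use the same hypoxia library, so a high or low value there moves them in opposite directions. The chaperonin subunits ran from -0.13 in Cct3 to -0.01 in Cct6a, with a median of -0.08 and 6 of 8 intervals below 0, against 29.2% of all abundant rows. Scaling to the same total, which moved the member median to 0.01, was not followed for the subunits apart. Cct3 had 5836 adjusted reads with In-Cl, 6289.7 with DPN, 6238 with E2 and 6373 in hypoxia, against 7787 in the control. Hspe1 was at -0.15 [-0.23 to -0.07] although its neighbour Hspd1 was above 0.

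In the same library the 77 ribosomal protein genes, a list added after values had been seen, had a median of -0.25 relative to hypoxia, with 77 of 77 below 0. Their median was -0.07 with DPN (70 of 77 below 0) and -0.09 with E2 (76 of 77 below 0). In hypoxia against control it was 0.21, with 76 of 77 above 0, and all these comparisons use the same hypoxia library. The 7 abundant smooth muscle markers had a median of -0.45 with In-Cl relative to hypoxia. The 9 smooth muscle markers summed to 258336 adjusted reads with In-Cl, 281134 with DPN, 332801 with E2 and 353668 in hypoxia, against 300252 in the control. Whether these shifts have a part in the small differences of the folding genes was not tested.

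With DPN against hypoxia the members lay around 0. Their median was 0.03, against 0.00 for all rows, with 17 above and 12 below 0 (49.9% of rows below 0), and 0 members were at least 0.32 different in either direction, where 1.48% of rows were higher and 1.34% lower; past 1.5-fold there were 0.299% of rows. Bag3 was lowest at -0.24 [-0.40 to -0.08], followed by Hspa1b at -0.24 [-0.37 to -0.10], Hspb1 at -0.13 [-0.21 to -0.05] and Cryab at -0.11 [-0.15 to -0.07]. Hspd1 was highest at 0.19 [0.14 to 0.23], followed by Hsph1 at 0.16 [0.07 to 0.24], the HSP90 immunophilin Fkbp4 at 0.13 and the adaptor Stip1 at 0.10. The chaperonin subunits spanned only -0.04 in Cct7 to 0.06 in Tcp1. Cct7 had 5400.0 adjusted reads with In-Cl, 5680.3 with DPN, 5897 with E2 and 5828 in hypoxia, against 6892 in the control. Tcp1 had 4591 with In-Cl, 4976 with DPN, 4701 with E2 and 4776 in hypoxia, against 5950.3 in the control.

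E2 was given at 10 nM, a different dose from the 0.1 µM of the other compounds, so its values stand beside theirs without a comparison of the compounds. Against hypoxia the members had a median of -0.03, against 0.00 for all rows, with 10 above and 19 below 0 (49.9% of rows below 0). Again 0 members were at least 0.32 different, where 2.34% of rows were higher and 1.54% lower, and past 1.5-fold there were 0.224% of rows. Hspa1b was lowest at -0.28 [-0.42 to -0.14], then Cryab at -0.25 [-0.29 to -0.21] and Hspb1 at -0.23 [-0.32 to -0.15], while Dnajb4 was highest at 0.13 [-0.02 to 0.27]. The chaperonin subunits ran from -0.04 in Cct5 to 0.03 in Cct6a. Cct5 had 7896 adjusted reads with In-Cl, 8557 with DPN, 8073 with E2 and 8305 in hypoxia, against 9383 in the control.

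The 3 comparisons share the 1 hypoxia library, so a hypoxia library that happened to lie high or low for a gene would give the same sign in all 3. Among the constitutive and inducible cytosolic forms, Hspa8 was at -0.12 for In-Cl, -0.03 for DPN and -0.05 for E2 relative to hypoxia. Hsp90ab1 was at -0.05 in each of the 3 comparisons, and Hsp90aa1 at 0.05 for In-Cl, 0.07 for DPN and 0.03 for E2. For Hsf1 the 3 differences were 0.08 for In-Cl, -0.06 for DPN and 0.01 for E2, and each interval included 0.

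In-Cl and DPN were given at the same dose and time, and they are the matched pair of compounds in the design. The members had a median of -0.08 for In-Cl against DPN, against -0.01 for all rows, with 6 above, 22 below and Hsp90ab1 at 0.00 (53.3% of rows below 0). Differences of 0.32 or more were absent in both directions, where 4.30% of rows were higher and 1.99% lower; past 1.5-fold there were 0.552% of rows. The interval lay below 0 for 18 members, against 24.6% of rows, and 7 of these 18 were chaperonin subunits, which ran from -0.12 to -0.04 with a median of -0.11. Hspb1 was lowest at -0.24 [-0.33 to -0.15], then Hspe1 at -0.22 [-0.30 to -0.14], Dnajb1 at -0.20 [-0.34 to -0.06] and Stip1 at -0.16 [-0.22 to -0.09]. Bag3 was highest at 0.18 [0.03 to 0.35], followed by Hsf1 at 0.14 [-0.01 to 0.29] and Hsph1 at 0.09 [0.01 to 0.17]. The 77 ribosomal protein genes had a median of -0.19 in this comparison, and their part in it was not tested.

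The doses differ from that of E2, so the values that follow stand side by side without a comparison of the compounds. Set beside E2, In-Cl gave a median of -0.02 over the members, with 0 past 0.32, where 3.66% of rows were higher and 2.46% lower and 0.358% were past 1.5-fold. DPN set beside E2 gave a median of 0.05, against -0.01 for all rows, with 23 members above 0 and 6 below, where 51.9% of rows were below 0, and 0 past 0.32, where 1.27% of rows were higher, 1.12% lower and 0.254% past 1.5-fold.

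**Figure D5:**
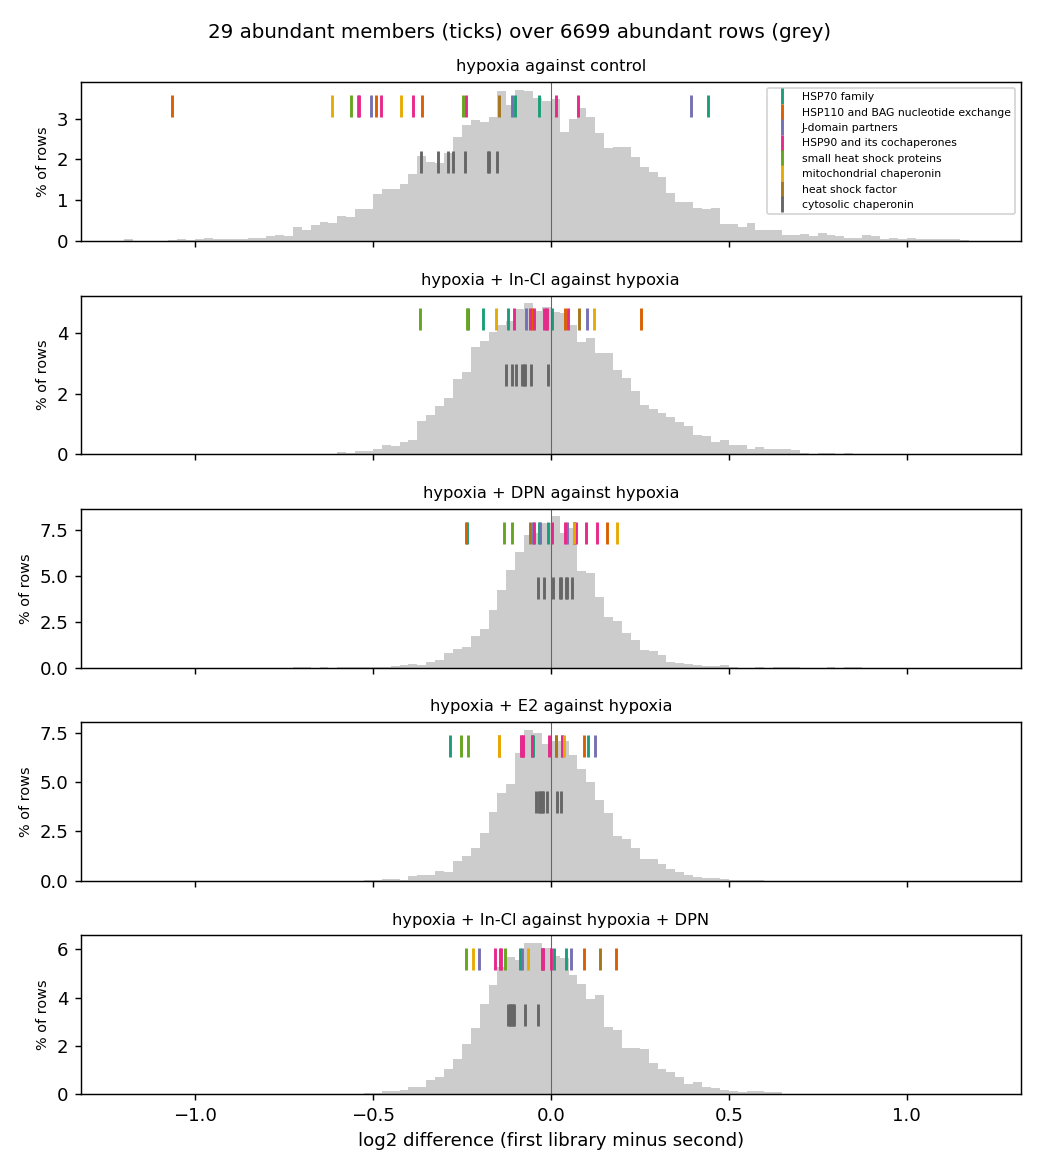
Distribution of log2 differences over the 6699 abundant rows (grey histograms, percent of rows per bin; rows beyond the axis are not drawn) with the 29 abundant members as coloured ticks by role, the cytosolic chaperonin on the lower line, in 5 comparisons. In hypoxia against control most ticks lie left of 0 (25 of 29), and in the other 4 comparisons they sit near the middle of the grey histograms, with medians between -0.08 and 0.03.

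Other genes of the folding system were described from lists by their counts. Of 24 abundant cochaperones of HSP70 and HSP90 other than the members, 10 were at least 0.32 lower in hypoxia than in the control, against the 16.9% of all rows given above, and 1 was higher, against 11.8%, with a median of -0.25. Ppid, a cyclophilin bound by HSP90, was lowest (1043 adjusted reads in hypoxia and 1873 in the control, -0.84 [-0.95 to -0.74]), and Fkbp8, a mitochondrial immunophilin, was highest (3377 in hypoxia and 2600.3 in the control, 0.38 [0.31 to 0.45]). The 11 abundant prefoldin subunits and chaperonin cofactors, which bring clients to the cytosolic chaperonin, had a median of -0.08, from Pfdn6 at -0.32 to Pdcl at 0.21, and 1 of them was at least 0.32 lower, against the same 16.9% of rows. The 12 abundant actins and tubulins, the clients themselves, had a median of -0.19; Tuba4a was past 2-fold lower (317 in hypoxia and 719 in the control, -1.18 [-1.38 to -0.99]), and Acta2, smooth muscle actin, was highest (152451 in hypoxia and 119362 in the control, 0.35). Of the heat shock factors, Hsf2 was at 0.14 [-0.02 to 0.31] and Hsf4, low in all libraries (72.3 to 135.1 adjusted reads), at -0.74 [-1.15 to -0.35].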

How the data were processed

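Libraries were prepared with a SMARTer Stranded kit from Trizol-extracted total RNA, per the labels' protocols, of 5 cultures of rat vascular smooth muscle cells. For every library the authors deposited a table of log2 values, 1 per row, with 17048 rows. Per the submitters' processing notes, TopHat and edgeR were used with rn6; versions, counting program, annotation and use of strand are given in none of the sources used here.

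Subtracting 1 after undoing the deposited log2 gave linear values, whose low end comes in equal steps within each library. Dividing by the step gave approximate reads (the share of low values, up to 2.5 reads, within 0.2 read of a whole number was 89.0% in the control and 99.1% to 100.0% in the others), used for counting intervals only (95%, Clopper-Pearson, on the first library's share of both libraries' reads). No count model was fitted. Calls are log2 differences past 1.5-fold, with a log2 difference of 0.32 (a ratio of 5 to 4) as a second rule, over the 6699 abundant rows. The calculation was tested on simulated data.

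The members, roles, lists and the rule for named genes were chosen with earlier results of these data known. Values in all 5 libraries were printed for 13 members picked by name, for the extreme chaperonin subunit in each direction and for members past 1.5-fold; from the other lists the highest and lowest detected gene and any past 2-fold. Alternatives were scaling (median centring, quantile normalization, same total), pseudocount 10, no filter on low values, 2-fold calls and each ligand library in place of hypoxia. Promoters came from RefSeq (GRCr8), matched by symbol, and their coordinates were not joined to the deposited rn6 tables; protein sequences were not analysed here. Python 3.11.15, numpy 2.4.6, pandas 2.3.3 and scipy 1.17.1 were used.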

Additional observations from a re-analysis of the deposited data

How the results depend on the processing

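No paired analysis was possible because each condition is 1 library and no result comes from a test. In hypoxia against control the number of members at least 1.5-fold lower, 2 as reported, was 1 at a 2-fold limit, 1 with median centring, 8 with the same total in every library and 4 where the In-Cl library stood for hypoxia; the number at least 0.32 (log2) higher, 2 as reported, was 0 with the same total, 0 with the In-Cl library and 1 with the DPN or the E2 library. The same total moved the member medians against hypoxia to 0.0115 for In-Cl, 0.0678 for DPN and 0.017 for E2, and for In-Cl it gave 1 member at least 0.32 (log2) higher and 0 lower. Without a filter on low values 1 member, Hspa12a on 5 reads or fewer per library, was past both limits higher than hypoxia with each compound, and 1 member each was at least 0.32 (log2) lower with DPN and with E2. Also without the filter, 1 was at least 0.32 higher for In-Cl against E2, and 2 higher and 1 lower for DPN against E2. Runs of 3 heat shock units in place of 2 left 6 of 17 promoters. The cause of these shifts, other than the limits and filters themselves, was not tested. Among the summary values, 186 under an alternative stayed close to the value reported and 25 did not. A median was called close inside the 95% order-statistic interval of the member median, so it could change sign and still count. A count was called close if equal, also at 0, or within a ratio of 1.5. For single members, 147 differences stayed within the counting interval of the reported value and 95 did not. The member median changed sign with the same total for In-Cl against hypoxia (-0.058 to 0.0115) and for E2 against hypoxia (-0.031 to 0.017). With quantile normalization it changed sign for In-Cl against E2 (-0.023 to 0.0021). Depth limits the 5 members outside the abundant rows, whose intervals in hypoxia against control all included 0.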

Other observations

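Of 8 abundant genes of mitochondrial protein quality control other than the chaperonin, 1 was at least 0.32 (log2) higher and 2 lower in hypoxia than in the control, shares near those of all abundant rows (11.8% higher and 16.9% lower), with a median of -0.02. Lonp1, the ATP-dependent protease of the matrix, had 4401 adjusted reads with In-Cl, 4356 with DPN, 4601 with E2 and 4626 in hypoxia, against 2591 in the control (0.84 [0.77 to 0.90], 1.79-fold higher in hypoxia), while Dnaja3, the J-domain partner of the mitochondrial HSP70, was lowest (-0.38 [-0.51 to -0.24]).

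Outside the members 2 small heat shock proteins were abundant. Hspb2, which lies close to Cryab in mammalian genomes, had 994 adjusted reads with In-Cl, 1087 with DPN, 1008 with E2 and 1110.3 in hypoxia, against 765 in the control (0.54 [0.41 to 0.67]). Hspb6, a small heat shock protein of smooth muscle, had 334 with In-Cl, 311 with DPN, 391 with E2 and 502 in hypoxia, against 443 in the control, which lay within the range of the hypoxic libraries (hypoxia against control 0.18, with an interval that included 0). It was lower than in hypoxia with In-Cl (-0.58 [-0.79 to -0.38]), with DPN (-0.69 [-0.90 to -0.48]) and with E2 (-0.36 [-0.56 to -0.16]). Hspb9 was the lowest member of that list (-0.83 [-6.99 to 2.36]) with 1 to 3 reads per library. Actg2, the gamma actin of smooth muscle, is not among the abundant rows. It was past 2-fold lower with In-Cl than in hypoxia (136 and 290.0 adjusted reads, -1.09). All 12 abundant actins and tubulins were below 0 in that comparison, the lowest at -0.49, where 52.7% of all abundant rows were below 0. They stand beside the lower smooth muscle markers given above.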
